A study of Mus musculus with 22 samples.

Results

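Calmodulin and the neuronal calcium sensors were followed through 8 genes of 29848 in the deposited tables: Calm2 and Calm3, which encode calmodulin, Nrgn (neurogranin), Hpca (hippocalcin), Hpcal4, Vsnl1 (visinin-like 1), Ncald (neurocalcin delta) and Ncdn (neurochondrin). The members were taken by gene symbol, and the list was drawn up with the values of these libraries already known. Their levels and differences are therefore a description, and no difference of a member is offered as a test of the list. Each gene has a value for 2 parts of its transcript: the coding part, which runs from the 5′ end through the stop codon into the first bases of the 3′ UTR, and what remains of the 3′ UTR, called its rest.

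All mice were Camk2a-tTA/tetO-EGFP-L10a double transgenics on a C57BL/6 background, in which the Camk2a promoter, active in excitatory forebrain neurons, drives a transactivator that switches on a ribosomal protein carrying a fluorescent tag. Hippocampal CA1 was dissected into dendrites and soma from mice that stayed in the home cage or were fear conditioned, and tagged ribosomes were pulled down with an antibody to the tag. There were 8 immunoprecipitate libraries, 2 for each behaviour and location, and 3 supernatant libraries of unbound RNA, from fear conditioned soma 2, fear conditioned dendrite 2 and home cage dendrite 2. Each of the 11 libraries was run paired-end and single-end, which gives 22 samples, and paired-end values are used unless the single-end run is named. The labels give no age, time after training or number of mice pooled, and leave unsaid whether each library is a different animal. Any p-value thus measures the spread between libraries, which may be technical.

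Calmodulin is the main calcium receptor of the cytoplasm, and in dendritic spines it switches on kinases and phosphatases that set synaptic strength. Neurogranin holds calmodulin at the postsynaptic membrane while calcium is low. Hippocalcin and its relatives carry EF hands, the calcium-binding loops of this superfamily, and a fatty acid at the N-terminus that lets them move to membranes when calcium binds.

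The starts of the coding sequences show why Calm2 and Calm3 are counted separately although their product is the same. The first 30 bases are given 5′ to 3′ from the GENCODE M21 transcripts of GRCm38, with capitals at the bases of Calm3 that differ from Calm2.

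Calm2: atggctgaccaactgactgaagagcagatt

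Calm3: atggctgaccaGctgactgaGgaAcagatt

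Over the 447 coding bases Calm2 and Calm3 differed at 78 positions, which is 82.6% identity, while all 149 residues were the same. Their longest shared run of bases was 17. The sources used here give neither read length nor the treatment of reads with several matches, so exchange of reads between them was not tested.

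The sensors share a start that ends in a run of similar codons, and in the next set the second codon is in capitals because it encodes the glycine to which the fatty acid is attached.

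Hpca: atgGGCaagcagaacagcaagctgcggcca

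Ncald: atgGGGaaacagaacagcaagctgcgccct

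Hpcal4: atgGGGaaaaacaacagcaagctggccccc

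Vsnl1: atgGGGaaacagaatagcaaactggcccca

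Hpca and Ncald shared 88.1% of residues and Hpcal4 and Vsnl1 shared 89.5%, so the 4 sensors form 2 close pairs. Identity of Hpca with Vsnl1 was 66.7% of residues. The longest run of bases common to Hpca and Ncald was 46, the longest of any pair compared here.

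The 8 genes lie on 6 chromosomes in the authors' annotation of build mm9, given for the model with the longest coding part. Calm2 is at chr17:87832741-87846275 and Calm3 at chr7:17500728-17509381, both on the minus strand. Nrgn is at chr9:37352078-37360330, minus strand. Chromosome 4 holds Hpca at chr4:128788819-128796211 and Ncdn at chr4:126420994-126430673, both on the minus strand, and Hpcal4 at chr4:122860747-122871942 on the plus strand. Vsnl1 is at chr12:11332051-11443455 and Ncald at chr15:37295930-37722183, both on the minus strand. The coding part includes the first 201 bases of the 3′ UTR, or 230 bases in Nrgn. The rest of the 3′ UTR runs from 428 bases in Calm2 to 3646 bases in Hpcal4.

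The paired-end immunoprecipitates held an estimated 5.61 to 29.9 M mapped fragments, and between 3220 and 12205 genes had a value above 0 in them, against 10344 to 13164 in the supernatants. Replicate immunoprecipitates resembled each other little: the correlation of log2 values across genes was 0.41 for fear conditioned dendrite, 0.29 for home cage dendrite, 0.27 for fear conditioned soma and 0.072 for home cage soma, against 0.55 to 0.74 between supernatants. A pair of immunoprecipitates resembled supernatants more than their own replicate: fear conditioned dendrite 1 correlated at 0.68 with the home cage dendrite supernatant, and fear conditioned soma 2 at 0.53 with the fear conditioned soma supernatant. In 1 immunoprecipitate a single ribosomal protein gene, Rpsa, made up 74.0% of the summed FPKM. Values are therefore given as scaled FPKM, fragments per kilobase and per M mapped fragments after division by a factor per library, and 11 of the 64 member values in the coding part were 0.

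CA1 pyramidal markers summed to 59.3 to 588 in the dendrite immunoprecipitates and 28.6 to 160 in soma over 10 genes, Nrgn among them. None of the 10 was at 0 throughout. Camk2a alone averaged 285 in dendrite and 31.4 in soma, so the dendrite sums rest mostly on this 1 gene. The 11 astrocyte markers summed to 146 to 263 in dendrite and 3.81 to 64.3 in soma, so these ranges did not overlap. Interneuron markers summed to 0.939 to 17.1 in dendrite and 0 to 7.09 in soma, with Pvalb at 0 in both and Slc32a1, Vip and Lhx6 also at 0 in soma. Dentate granule markers summed to at most 2.59 in dendrite and 3.75 in soma, with C1ql2 and Dsp at 0 throughout. Oligodendrocyte markers summed to 5.09 to 58.4 in dendrite and 1.17 to 70.7 in soma. Their sums of 34.5 in home cage soma 1 and 70.7 in fear conditioned soma 1 were above the CA1 sums there, 32.8 and 47.4. In dendrite and soma, microglia markers reached at most 16.1 and 8.81, CA3 or CA2 markers 35.2 and 1.25, and endothelial markers 4.91 and 0.281. The part of these other cells in the members' values was not tested. In bulk tissue fewer cells of a type and less RNA per cell cannot be told apart.

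By mean over the 8 immunoprecipitates, levels per length in the coding part fell in the order Calm3 at 59.5 ± 92.5 (SD, n = 8), Vsnl1 at 58.5 ± 70.3, Calm2 at 26.5 ± 50.9, Hpcal4 at 9.08 ± 12.9, Ncdn at 7.87 ± 9.76, Hpca at 5.34 ± 7.14, Nrgn at 4.45 ± 9.08 and Ncald at 0.025 ± 0.053 scaled FPKM. Each SD was larger than its mean, and neighbours in the order were ranked that way in only 4 to 6 of the 8 libraries. In the single-end runs the order was Vsnl1, Calm2, Calm3, Hpca, Nrgn, Hpcal4, Ncdn and Ncald. The highest member changed between libraries: it was Vsnl1 in both fear conditioned dendrite libraries and fear conditioned soma 1, Calm3 in home cage dendrite 1, home cage soma 2 and fear conditioned soma 2, Calm2 in home cage dendrite 2, and Ncdn in home cage soma 1.

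**Figure D1:**
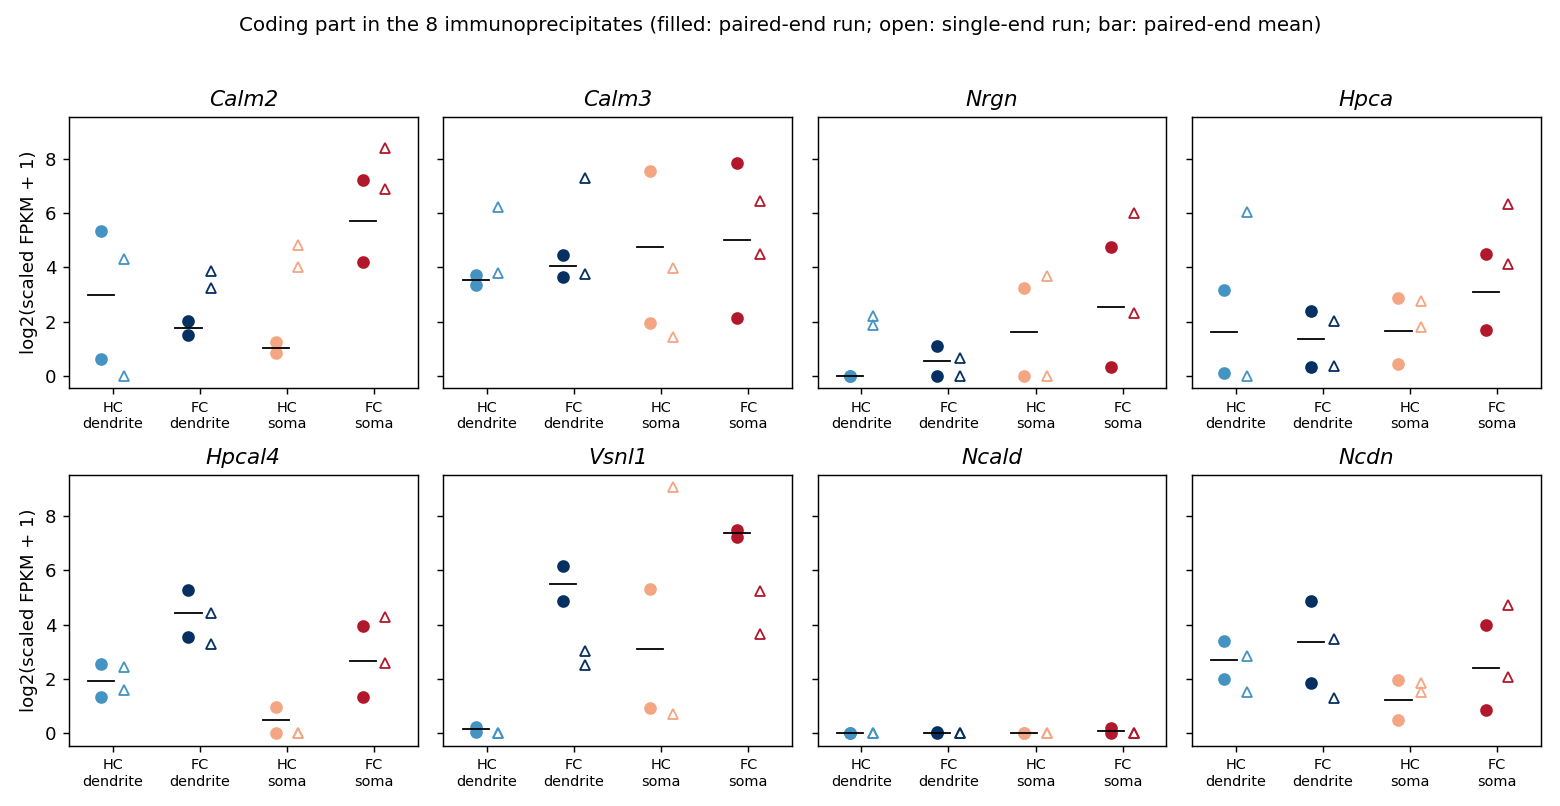
Coding-part values of the 8 genes as log2(scaled FPKM + 1) in the 8 immunoprecipitates, grouped by behaviour (HC home cage, FC fear conditioned) and location. Filled circles are paired-end runs, open triangles the single-end runs of the same libraries and bars the mean of the 2 paired-end libraries; Vsnl1 sits near 0 in both home cage dendrite libraries and at 28.4 and 70.5 scaled FPKM in the fear conditioned ones, and Ncald is near 0 throughout.

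Calm2 encodes the same calmodulin protein as Calm3. Its coding part measured 0.527 and 39.5 scaled FPKM in the home cage dendrite libraries and 3.03 and 1.84 in the fear conditioned dendrite libraries. In soma it measured 0.779 and 1.35 in the home cage and 17.3 and 148 after fear conditioning. Both fear conditioned soma libraries thus lay above both home cage soma libraries, whereas in dendrite the 2 home cage values bracketed the fear conditioned ones. The home cage soma values rested on an estimated 4.9 and 4.1 fragments and the fear conditioned soma values on 346.3 and 5980.6. The single-end runs gave 14.9 and 27.5 in home cage soma and 116 and 330 in fear conditioned soma, again without overlap. In the rest of its 3′ UTR Calm2 measured 12.9 and 5.12 in home cage soma and 147 and 773 in fear conditioned soma, so both parts and both runs had the same order of groups.

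Calm3 was steady in dendrite and erratic in soma. The dendrite libraries read 12.1 and 9.28 in the home cage and 11.5 and 21 after fear conditioning. The soma libraries read 2.87 and 187 in the home cage and 3.42 and 229 after fear conditioning. In each behaviour, library 1 of the soma was below the dendrite libraries and library 2 was far above them, so the soma values spanned the whole range of the dendrite values. The single-end run of home cage soma 2 gave 14.5 for Calm3, not 187, and the single-end dendrite values spread from 12.3 to 156. Outside the coding part the same soma libraries read 60.2, 3.69, 5.70 and 88.7, so that home cage soma 2, high in the coding part, was the lowest of the 4 in the rest of the 3′ UTR.

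Nrgn encodes neurogranin, whose mRNA is a classical dendritic transcript of the forebrain. In these dendrite immunoprecipitates the coding part of Nrgn was 0 in 3 of 4 libraries and 1.11 in fear conditioned dendrite 1, on an estimated 35.8 fragments. That library is the one that correlated best with a supernatant. In soma the 4 values were 0 and 8.46 in the home cage and 0.261 and 25.7 after fear conditioning. The rest of its 3′ UTR measured at most 0.633 in dendrite and 46.1 in fear conditioned soma 2, the library with the highest coding-part value as well. In the single-end runs the dendrite values were 3.55, 2.64, 0 and 0.559, so the libraries with a value above 0 were not the same in the 2 runs.

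Hpca encodes hippocalcin, a calcium sensor named for its abundance in hippocampal pyramidal cells. Its coding part was low: 7.98 and 0.0656 in home cage dendrite, 0.260 and 4.17 in dendrite after fear conditioning, 0.340 and 6.22 in home cage soma, and 2.25 and 21.5 in fear conditioned soma. The rest of the 3′ UTR of the same transcript was far higher in most libraries, at 0, 81.9, 9.46 and 106 in dendrite and 59.2, 0, 119 and 827 in soma, in the same order. The 2 libraries with no signal in the rest of the 3′ UTR, home cage dendrite 1 and home cage soma 2, had the highest coding-part value of their own behaviour and location. The order of the libraries thus differed between the 2 parts.

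Hpcal4, a sensor most like visinin-like 1, was the sensor with the higher dendrite values. Its coding part measured 1.51 and 4.88 in home cage dendrite, 10.7 and 38.3 in dendrite after fear conditioning, 0 and 0.951 in home cage soma, and 1.53 and 14.7 in fear conditioned soma. Within each behaviour the dendrite libraries overlapped the soma libraries only after fear conditioning, where soma 2 exceeded dendrite 1. The rest of its 3′ UTR, the longest of the 8, measured 12.5, 18.4, 6.02 and 17.7 in dendrite and 0.0286, 1.87, 8.60 and 4.99 in soma. In the single-end runs this part read 16.2, 11.5, 10.5 and 28.7 in dendrite and 0.317, 1.11, 6.96 and 4.48 in soma, so all 4 dendrite values lay above all 4 soma values there. The locations overlapped in the paired-end values of this part and in the coding part of both runs. The share of all genes standing apart in the single-end rest of the 3′ UTR was not computed.

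Vsnl1 encodes visinin-like 1, a sensor known for modulating cyclic nucleotide and receptor signalling at neuronal membranes. Its coding part was all but absent from the home cage dendrite libraries, at 0.174 and 0.050, an estimated 1.1 fragments in each. The fear conditioned dendrite libraries read 28.4 and 70.5, on an estimated 1483.9 and 2586 fragments. Soma libraries read 0.910 and 38.7 in the home cage and 148 and 181 after fear conditioning, so that fear conditioned libraries were above home cage libraries at both locations. The single-end runs were 0 and 0 against 7.19 and 4.68 in dendrite, with the same order of groups. In soma they were 0.627 and 536 against 11.7 and 36.7, where home cage soma 2 was the highest of all and the order of groups was lost. The rest of the 3′ UTR of Vsnl1 was 0 in fear conditioned dendrite 2 and in home cage soma 2, although both had coding-part signal, and 7.88 in fear conditioned dendrite 1.

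Ncald encodes neurocalcin delta, the closest relative of hippocalcin here. It was 0 in 6 of 8 immunoprecipitates, 0.0499 in fear conditioned dendrite 1 and 0.147 in fear conditioned soma 1, an estimated 3.1 and 4.8 fragments. With a mean below 1 scaled FPKM it entered none of the fits. On the scale set over all 11 libraries its coding part measured 2.86 and 3.42 in the dendrite supernatants, on an estimated 170.1 and 205.5 fragments, and 0.112 in the soma supernatant. In the paired-end runs Ncald was the only one of the 8 genes whose dendrite immunoprecipitates all lay below both dendrite supernatants. Of the 2938 genes tested over the 11 libraries, 18% lay entirely below and 4.39% entirely above. Ncald is not among those genes, and the share among genes as low as Ncald was not computed. In the single-end runs Ncald, Hpcal4 and Vsnl1 lay entirely below, 3 of 8 members. The share of all genes that did so in those runs was not computed, so this count has no background. The single-end supernatants were also deeper, at 6.94 to 10.7 M reads against 0.523 to 4.31 M in the immunoprecipitates.

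Ncdn encodes neurochondrin, a neuronal leucine-rich protein without EF hands that restrains the calmodulin-dependent kinase CaMKII. Its coding part measured 3.04 and 9.65 in home cage dendrite, 2.63 and 28.7 in dendrite after fear conditioning, 2.87 and 0.411 in home cage soma, and 0.814 and 14.8 in fear conditioned soma. The rest of its 3′ UTR read 0, 7.08, 0.949 and 0.840 in dendrite, and in soma 111 in home cage soma 1 against 0.297, 7.0 and 8.24 in the other libraries. No pair of groups stood apart in either part of Ncdn by behaviour within a location in the paired-end runs. The single-end coding part read 1.88 and 2.63 in home cage soma and 3.20 and 25.4 in fear conditioned soma, without overlap. The share of all genes standing apart in that run was not computed.

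Between dendrite and soma, 7 members had a mean of at least 1 scaled FPKM and were fitted with limma on log2(scaled FPKM + 1). Vsnl1 differed by -2.41 on the log2 scale (SE 1.22), Nrgn by -1.81 (SE 1.1), Calm3 by -1.08 (SE 1.53), Calm2 by -1.0 (SE 1.26) and Hpca by -0.87 (SE 1.13). Hpcal4 was higher in dendrite by 1.62 (SE 1.05) and Ncdn by 1.22 (SE 1.15). None of the 7 passed limma's test at an adjusted p of 0.05, none had an unadjusted p under that value, and the lowest adjusted p was 0.650. The background was 0% of 2928 genes called, with 1.88% higher and 2.87% lower in dendrite at an unadjusted p under 0.05 (139 genes) and 0 called with robust moderation. No member had dendrite and soma libraries that did not overlap, against 1.71% of genes entirely higher and 1.74% entirely lower in dendrite. The median of the members was -1.0 and that of all genes -0.30. Without scaling between libraries the median of all genes was 0.12, and the sign of each of the 7 differences was the same as with scaling.

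The direction held for some members and not for others. Nrgn, Hpca, Hpcal4 and Vsnl1 had 1 sign in the paired-end and single-end tables, in both parts of the transcript and with each library left out. Calm3 turned to 1.18 in the single-end runs and to 0.35 at most when a library was left out, and Ncdn to -0.25 in the single-end runs and to -2.0 with the rest used instead. Calm2 ranged from -2.19 to 0.18 as single libraries were left out, and the positive value came without home cage dendrite 1.

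**Figure D2:**
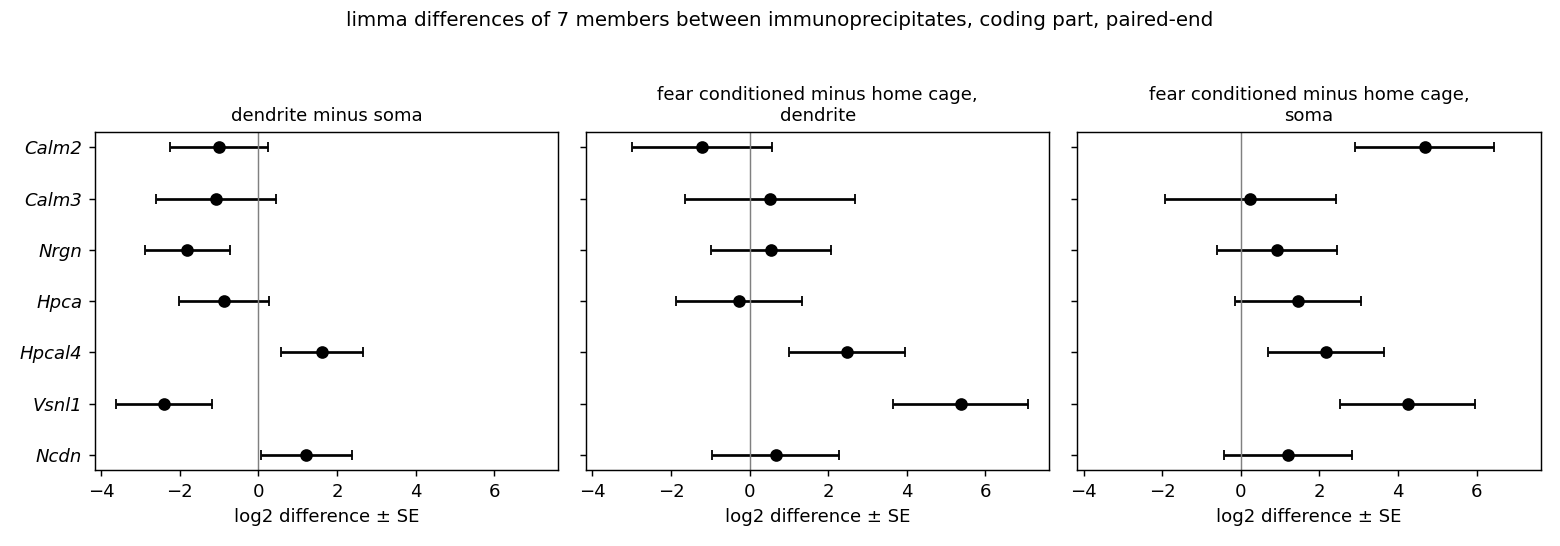
Log2 differences of the 7 fitted members in the coding part, with limma's standard error as bars, for dendrite minus soma and for fear conditioned minus home cage at each location. In dendrite minus soma Hpcal4 (1.62) and Ncdn (1.22) lie right of 0 and the other 5 left of it; all 7 lie right of 0 in the soma panel, with Calm2 at 4.67 and Vsnl1 at 4.24.

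Fear conditioning was set against the home cage separately at each location. In dendrite Vsnl1 differed by 5.37 (SE 1.72) and Hpcal4 by 2.48 (SE 1.48), and in both genes the 2 fear conditioned libraries lay above the 2 home cage libraries. Libraries stood apart upward in 24.5% of all genes tested and downward in 8.61%, so 2 of 8 members is near the background. The other members differed by -1.22 (Calm2) to 0.66 (Ncdn). None passed (limma, lowest adjusted p 0.944), the background was 0% of 2928 genes called with 1.95% higher and 1.33% lower at an unadjusted p under 0.05 (96 genes), and Vsnl1 was the only member among these. Robust moderation called 0 genes too. The difference of Vsnl1 was 6.01 without fear conditioned dendrite 1, the library most like a supernatant, 2.77 in the single-end runs and 1.28 with the rest of the 3′ UTR as the measure. That of Hpcal4 was 1.85 in the single-end runs and -0.50 with the rest of the 3′ UTR. Genes above 0 numbered 3344 and 4695 in the home cage dendrite libraries and 12205 and 6147 in the fear conditioned ones, and the part of this in the differences was not tested. Because the home cage libraries hold about 1 fragment of Vsnl1 each, the size of its difference depends on the pseudocount, and it was 7.79 with 0.1 in place of 1 and 3.30 with 5.

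In soma all 7 fitted members had a positive difference, fear conditioned above home cage: Calm2 4.67 (SE 1.78), Vsnl1 4.24 (SE 1.72), Hpcal4 2.17 (SE 1.48), Hpca 1.46 (SE 1.60), Ncdn 1.20 (SE 1.62), Nrgn 0.92 (SE 1.53) and Calm3 0.24 (SE 2.17). Their median was 1.46, against 0.43 for all genes, of which 61.9% were positive. Some other measures moved with behaviour in soma: genes above 0 numbered 5006 and 3220 in the home cage and 9267 and 9211 after fear conditioning. Interneuron markers summed to 0.0745 and 0 against 4.67 and 7.09, and dentate granule markers to 0 and 0 against 0.156 and 3.75. CA1 pyramidal markers, a list that includes Nrgn, summed to 32.8 and 28.6 against 47.4 and 160. Sums of the astrocyte, oligodendrocyte, microglia, endothelial and CA3 or CA2 markers overlapped between behaviours. The part of these measures in the members' differences was not tested. Calm2, Hpcal4 and Vsnl1 had libraries that did not overlap, 3 of 8 members against a background of 33.4% upward and 7.99% downward. None of the 7 passed (limma, lowest adjusted p 0.568), nor did any of 2928 genes (0%), of which 5.94% were higher and 1.47% lower at an unadjusted p under 0.05 (217 genes), Calm2 and Vsnl1 among them. With robust moderation 0 were called. Leaving out home cage soma 2 took Vsnl1 to 6.43 and leaving out home cage soma 1 took it to 2.05, with 1 home cage soma library left each time. In the single-end runs the difference of Vsnl1 was -0.43, while Calm2 stayed at 3.21. Without fear conditioned soma 2, the library most like a supernatant among the soma libraries, Calm2 fell to 3.16, Nrgn to -1.29, Calm3 to -2.61 and Ncdn to -0.37.

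That library held the highest coding-part value of 5 of the 8 members, Calm2, Calm3, Nrgn, Hpca and Vsnl1, against 16.8% of the 2928 genes tested. The same 5 members were highest there in the rest of the 3′ UTR, against 24.4% of genes. In its single-end run it was highest for Calm2, Nrgn, Hpca, Ncald and Ncdn in the coding part, against 15.7% of genes, and Ncald reached only 0.00013 there. In the single-end rest of the 3′ UTR it was highest for 3 of 8 members, Calm2, Nrgn and Hpca, against 19.1% of genes. Calm2, Nrgn and Hpca were thus highest in fear conditioned soma 2 in both runs and both parts. The share of all genes highest there in both runs and both parts was not computed.

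The difference between locations in the fear conditioning effect, dendrite minus soma, was -5.89 (SE 2.51) for Calm2 and between -1.73 and 1.12 for the other 6. None passed (limma, lowest adjusted p 0.716), and the background was 0% of 2928 genes, with 0.956% positive and 2.53% negative at an unadjusted p under 0.05 (102 genes), of which Calm2 was the only member. Robust moderation called 0 genes. Calm2 is the gene whose home cage dendrite libraries were 0.527 and 39.5, so its dendrite effect was -3.58 without home cage dendrite 1 and 1.15 without home cage dendrite 2. The difference between locations for Calm2 was then -8.26 and -3.53, and it was -1.81 in the single-end runs, where the dendrite effect of Calm2 was 1.40.

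The supernatants hold RNA of all cells in the dissection that was not bound to tagged ribosomes. On the 11-library scale, with dendrite from the home cage first, dendrite after fear conditioning second and soma last, the coding part of Hpcal4 measured 16.8, 39.1 and 6.99, that of Vsnl1 4.43, 36.5 and 48.9, and that of Calm2 3.54, 10.3 and 31.4. Vsnl1 was thus higher in the fear conditioned than in the home cage dendrite supernatant, with 1 library in each, but its single-end runs gave 15.2 and 9.38, the other way round. Calm3 measured 24.2, 14.0 and 21.1, Hpca 3.73, 1.66 and 6.94, and Ncdn 5.14, 3.53 and 10.5. Nrgn was 2.80, 0.49 and 7.93, and in the single-end runs 2.96, 7.45 and 93.4, highest in the soma supernatant in both. The 3 dendrite immunoprecipitates at 0 for Nrgn in the paired-end run read 4.08, 2.93 and 0.642 in their single-end runs on the same scale, on an estimated 4, 1.3 and 1.3 reads, so dendrite immunoprecipitates and supernatants overlapped there.

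Immunoprecipitates and supernatants were compared with limma over the 11 libraries, with behaviour as a covariate. In dendrite 2 of 2938 genes passed (0.0681%), neither of them a member, and 0.987% were higher and 3.37% lower at an unadjusted p under 0.05, again without a member. The members' differences ran from -1.55 for Hpcal4 (SE 1.21) to 0.66 for Ncdn (SE 1.27). In soma, where there is 1 supernatant, they ran from -1.44 for Ncdn (SE 1.70) to 1.72 for Vsnl1 (SE 1.92). That supernatant is fear conditioned, so the fitted soma differences include the behaviour adjustment. Without it the difference of mean log2 values of Vsnl1 was -0.40, and -0.53 in the single-end runs. No gene passed in the soma fit (0%), and robust moderation called 0. At an unadjusted p under 0.05, 0.136% were higher and 0.817% lower (28 genes), none of them a member. Between the supernatants, dendrite minus soma, Hpcal4 differed by 2.74 (SE 1.77) and Nrgn by -1.81 (SE 1.79), with the sign each had in the immunoprecipitates. Calm2 (-1.42), Calm3 (-0.20) and Hpca (-1.10) also had the same sign. Ncdn was -0.85 between supernatants and 1.22 between immunoprecipitates. Vsnl1 was 0.31 between supernatants in this fit and -2.41 between immunoprecipitates. The only soma supernatant is fear conditioned, so the 0.31 includes the behaviour adjustment. Without that adjustment the difference of mean log2 values of Vsnl1 between supernatants was -1.81, and -1.62 in the single-end runs. No gene passed in that comparison either (0% of 2938, 0.681% higher and 0.374% lower at an unadjusted p under 0.05, 31 genes and no member, 0 with robust moderation).

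**Figure D3:**
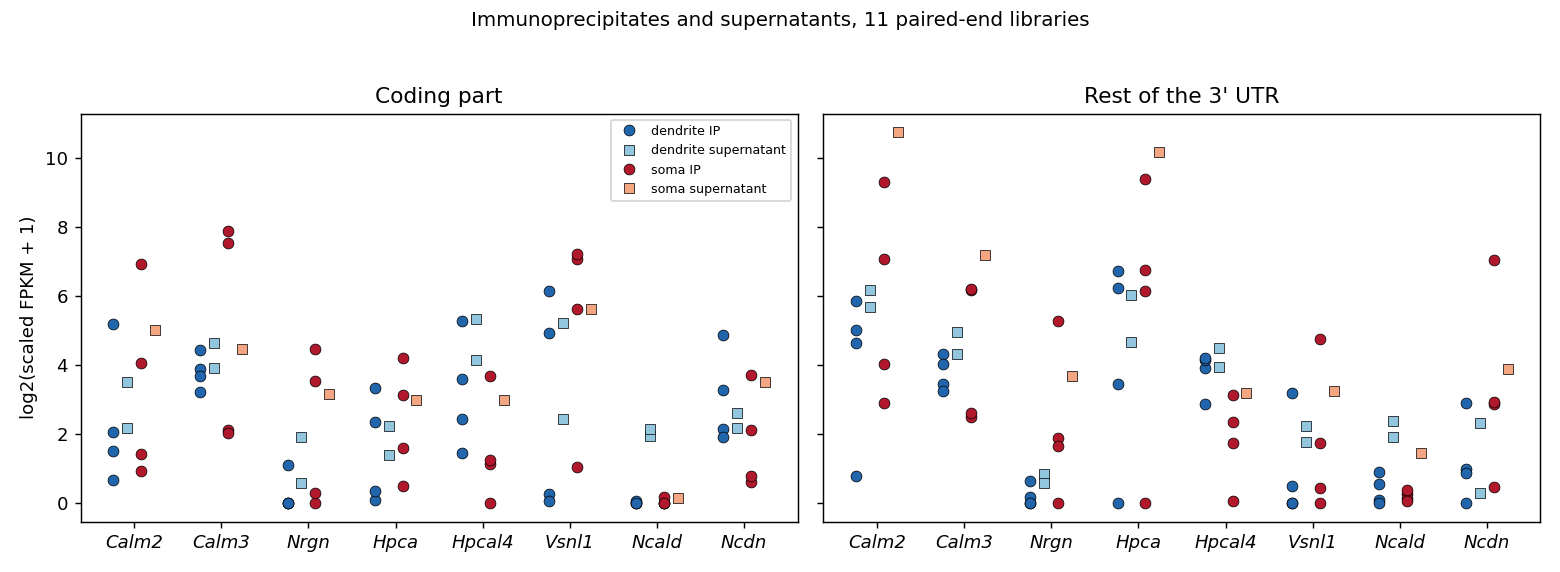
Coding part and rest of the 3′ UTR of the 8 genes as log2(scaled FPKM + 1) on the 11-library scale, with immunoprecipitates (IP) as circles and supernatants as squares. Ncald is near 0 in every immunoprecipitate and at 2.86 and 3.42 scaled FPKM in the dendrite supernatants, and the soma supernatant is the highest point of Calm2 and Hpca in the rest of the 3′ UTR.

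The 2 parts of a transcript often gave unlike values. In Hpca the rest of the 3′ UTR was above the coding part in 9 of 11 libraries in each run, and the median log2 ratio over the 8 immunoprecipitates was 4.78 in the paired-end and 2.48 in the single-end runs. Calm2 had the rest of the 3′ UTR higher in 9 of 11 libraries in each run as well, with a median log2 ratio of 2.48 in the paired-end and 0.52 in the single-end immunoprecipitates. In Vsnl1 it was the other way round: the rest of the 3′ UTR was above the coding part in 1 of 11 libraries in each run, with a median log2 ratio of -2.10 and -0.64. For scale, the median over 938 genes with both parts measured was 0, and 40.6% of them were above 0.

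In the paired-end soma supernatant the ratio of the rest of the 3′ UTR to the coding part was 169 for Hpca and 55.1 for Calm2, the highest among the 3 supernatants. In the single-end runs it was 22.5 for Calm2, again the highest, but 3.90 for Hpca, below the 4.07 of the home cage dendrite supernatant. On the 11-library scale the rest of the 3′ UTR measured 1172 for Hpca and 1732 for Calm2 in the paired-end soma supernatant. Among the paired-end immunoprecipitates the Hpca ratio was 0 in 2 libraries and ran from 25.3 to 1248 in the other 6.

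Whether the ratio of the parts differed by location was tested over those 938 genes with limma, and 0 passed (0%), with 1.07% higher and 4.16% lower at an unadjusted p under 0.05 (49 genes), none a member, and 0 passed with robust moderation. The differences of the members ran from -3.35 for Ncdn (SE 1.47, adjusted p = 0.781) upward. In Ncdn this difference was negative in each alternative run, at -2.11 without home cage soma 1, the smallest value with any library left out, and at -0.74 in the single-end runs.

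**Figure D4:**
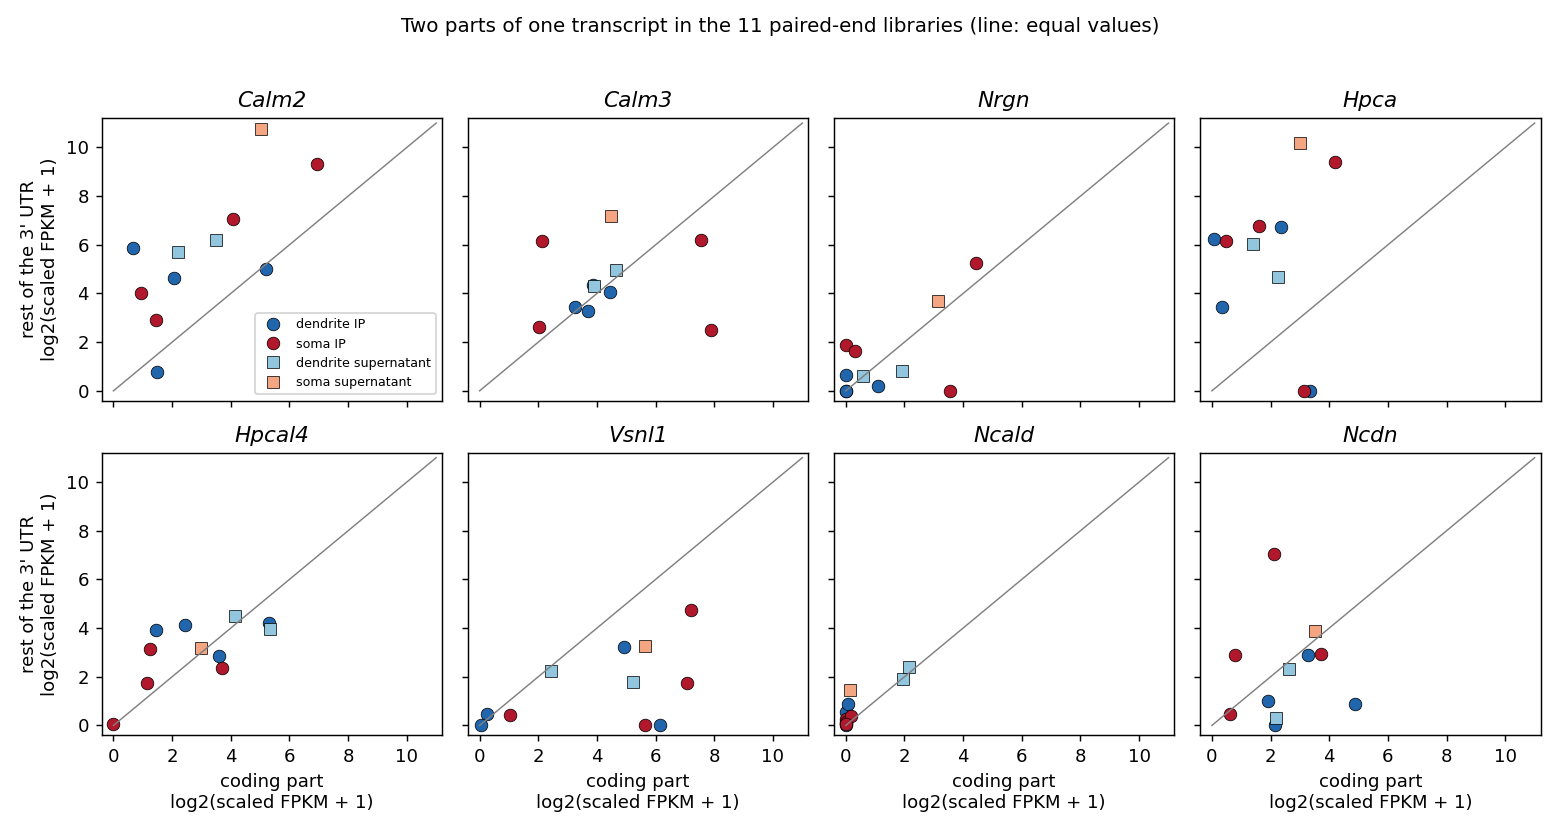
Rest of the 3′ UTR against the coding part, both as log2(scaled FPKM + 1), in the 11 paired-end libraries for each of the 8 genes; the line marks equal values, circles are immunoprecipitates (IP) and squares supernatants. Points of Calm2 and Hpca lie above the line in 9 of 11 libraries, and those of Vsnl1 below it in all but 1.

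Other genes of the pathway were counted in lists drawn up with results of these data known. Of 28 calmodulin-dependent enzymes and pumps 14 were fitted: 4 were positive and 10 negative in dendrite minus soma, with a median of -1.27 against -0.30 for all genes, and none passed. Of all genes tested 57.4% were negative in that comparison. Camk2a, the kinase whose mRNA is sent to dendrites, was positive at 2.92 (SE 1.10), with 285 ± 245 in dendrite and 31.4 ± 23.0 in soma (SD, n = 4 each). Ppp3ca, the catalytic subunit of calcineurin, stood at -1.13 (SE 1.01), Rasgrf1, a calmodulin-regulated exchange factor for Ras, at -1.42 (SE 1.05), and Camta1, a calmodulin-binding transcription activator, at -2.26 (SE 1.25). In soma, fear conditioned minus home cage, 12 of the 14 were positive with a median of 1.39 against 0.43 for all genes, and none passed. The share of all genes positive there was 61.9%. In dendrite 9 of 14 were positive, near the 56.7% of all genes, with a median of 0.36 against 0.076.

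Of the 23 calcium sensors and related EF-hand genes, 22 were in the tables and 6 were fitted, 3 of them members. Ncs1, also known as frequenin, measured 5.32 ± 6.61 in dendrite and 0.091 ± 0.15 in soma, a log2 difference of 1.98 (SE 0.83, limma adjusted p = 0.650). Its highest dendrite value was 15.1, in home cage dendrite 1. The single-end runs of Ncs1 read 1.27, 0, 0 and 1.20 in dendrite and 0, 0, 0.180 and 0.259 in soma, so the locations overlapped there. Kcnip4, a subunit of potassium channels, was nearly absent from dendrite at 0.014 ± 0.028 and measured 2.60 ± 2.96 in soma, and Kcnip1 measured 3.41 ± 6.76 and 0.082 ± 0.11. Cabp7 stood at 1.23 ± 1.78 in dendrite and 0.038 ± 0.076 in soma, and Hpcal1, a close relative of hippocalcin, was all but unmeasured at 0.019 ± 0.038 and 0.

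Among 7 genes for calmodulin-binding proteins with an IQ motif or of the MARCKS group, 3 were fitted, Nrgn among them. Pcp4, a small IQ protein that is also a marker of the neighbouring CA2 field, measured 12 ± 15.7 in dendrite and was 0 in all 4 soma immunoprecipitates. Basp1 read 0.89 ± 0.90 and 2.1 ± 2.57, Marcks 0.54 ± 0.95 and 0.37 ± 0.38, Pcp4l1 0.60 ± 0.67 and 0, and Gap43, the axonal counterpart of neurogranin, 0.17 ± 0.33 and 0.28 ± 0.38. Of 8 calcium buffers only S100b, an astrocyte-enriched protein, was fitted, at 2.04 ± 2.36 in dendrite and 0.17 ± 0.35 in soma. Calb1 was 0 in dendrite and 0.93 ± 1.87 in soma. Calm4, Calml3 and Calml4, calmodulin-like genes, had group means of at most 0.010.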

How the data were processed

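Ribosome-bound and unbound RNA of CA1 dissections was amplified (Nugen Ovation RNA-Seq System V2) and sequenced, per the labels' protocols. Cufflinks 2.0.2, STAR 2.1.1d, CASAVA 1.9 and build mm9 are listed, per the submitters' processing notes, while the sources used here give no order, settings or strand use. The authors deposited FPKM for both parts of each transcript, in a paired-end and a single-end table, with an annotation of mm9 whose coordinates are used 1-based. FPKM keep no counts; depth was estimated from the spacing of low values in transcripts of at least 1500 bases, of which 89.9 to 97.4% lay within 0.15 of a whole number of reads, and came to 5.61 to 35.4 M fragments (paired-end) and 0.523 to 10.7 M reads (single-end). Low values in the shallower libraries thus rest on few reads. Amplified RNA without molecular identifiers does not count molecules, and no counting intervals were computed.

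Scaling factors were the median, per library, of the ratios to the genes' geometric means, taken over the 870 genes above 0 in all 8 immunoprecipitates, or the 765 above 0 in all 11 libraries, so that values on the 2 scales differ slightly. Both parts were divided by the factors of the coding part. Genes averaging 1 scaled FPKM or more were fitted with limma 3.58.1 in R 4.3.3 on log2(scaled FPKM + 1), two-sided, with Benjamini-Hochberg adjustment over all genes tested and a threshold of 0.05. Log2 differences on that scale understate the change of low genes. The 8 immunoprecipitates entered as 4 groups (4 residual degrees of freedom) and all 11 libraries entered by fraction and location, adjusted for behaviour (6 residual degrees of freedom). The fits were tested on simulated data. Groups came from the labels, and the single-end run of a library never counted as a replicate.

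The members and gene lists were chosen with earlier results of these data known. All 8 members were named in each comparison. Of each pathway list the 4 measured non-members with the highest mean were named, and Ncs1, Hpcal1 and Gap43 in any case; 1 further gene of that rule is not reported here. Genes like a member were the 2 non-members with the highest Pearson r over the 11 paired-end libraries among genes with a mean of at least 10, named where r over the single-end runs was at least 0.5. Alternatives were pseudocounts of 0.1 and 5, no minimum and one of 5, no scaling, robust moderation, the single-end table, the rest of the 3′ UTR, a replicate block and leaving out each library. Coding sequences came from GENCODE M21 (GRCm38).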

Additional observations from a re-analysis of the deposited data

Results flagged for a closer look

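In 32 groups of 4 immunoprecipitates (8 genes, 2 parts, 2 locations) 1 library was set against the other 3, and 4 groups held a library far from the rest by Dixon's criterion. For continuous values chance gives about 1 in 20 groups. That rate is no chance level here, because in 3 of the 4 groups the other libraries were exactly 0 and any value above 0 then meets the criterion. In the dendrite immunoprecipitates Nrgn measured 1.11 scaled FPKM in the coding part in fear conditioned dendrite 1, while the other 3 libraries were at 0. The rest of the 3′ UTR of Vsnl1 measured 7.88 in the same library, and the others lay between 0 and 0.354. The coding part of Ncald measured 0.0499 there, and the others were at 0. In soma, Ncald measured 0.147 in fear conditioned soma 1, and the others were at 0. Of these 4 values, 3 belong to fear conditioned dendrite 1, the library with a correlation of 0.68 with the home cage dendrite supernatant; the part of unbound RNA in them was not tested.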

How the results depend on the processing

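Of 56 differences of members, 20 had 1 sign in every setting. With every library kept, no member value passed the threshold in any setting. The pseudocount moved the difference of Vsnl1 in dendrite, fear conditioned minus home cage, from 5.37 to 7.79 at 0.1 and 3.30 at 5. Depth limits what can be said of Nrgn, Ncald and home cage dendrite Vsnl1, whose values rest on few fragments, and with 2 libraries a group a single library can turn a difference. The cause of the changes below was not tested.

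Counts of genes called were as follows where they moved. For dendrite minus soma (0 genes), no scaling and the single-end table each gave 1. For fear conditioned minus home cage in soma (0 genes), no scaling gave 1. For the difference between locations of the fear conditioning effect (0 genes), the rest of the 3′ UTR gave 1. For immunoprecipitate minus supernatant in dendrite (2 genes), a pseudocount of 0.1, one of 5 and a minimum of 5 each gave 1, no minimum gave 376, the single-end runs gave 10 and the rest of the 3′ UTR gave 0. For the same in soma (0 genes), a pseudocount of 0.1, a minimum of 5 and the rest of the 3′ UTR each gave 1, no minimum gave 935 and the single-end runs gave 10. Between supernatants (0 genes), no minimum gave 924 and the single-end runs gave 6. For the ratio of the parts (0 genes), no minimum gave 3. Mean levels were also taken in the single-end runs, without scaling and with the rest of the 3′ UTR. Those of Calm3, Nrgn, Hpcal4, Vsnl1 and Ncdn moved by less than their SD between libraries. The mean of Hpca moved by more than its SD in the single-end runs and with the rest of the 3′ UTR. The means of Calm2 and Ncald did so with the rest of the 3′ UTR only.

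Leaving out 1 library gave 0 to 96 genes for dendrite minus soma, 0 to 69 for fear conditioned minus home cage in dendrite, 0 to 175 for the same in soma and 0 to 95 for the difference between locations. Counts above 0 came without fear conditioned soma 1 (96, 175 and 95 for dendrite minus soma, behaviour in soma and the difference between locations), fear conditioned soma 2 (74, 173 and 72), home cage soma 2 (79, 122 and 61), home cage soma 1 (70 for behaviour in soma) and fear conditioned dendrite 1 and 2 (69 and 26 for behaviour in dendrite). It gave 0 to 2 in each comparison with supernatants and 0 for the ratio of the parts. A group of 1 library is then assumed to vary like the others, and comparisons that need the soma supernatant could not be made without it.

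The labels do not say what the library numbers mark, and whether they pair the samples could not be told. Deviations of same-numbered dendrite and soma libraries correlated at 0.056 (fear conditioned) and -0.00098 (home cage), while 6 of 8 libraries correlated best with their own number. With replicates as unlike as these, weak correlations cannot decide the question. With the number as a replicate block the count was 1 for dendrite minus soma, 1 for immunoprecipitate minus supernatant in dendrite and 0 for the ratio of the parts.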

Other observations

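For each member the 2 genes of 330 with the highest Pearson r over the 11 paired-end libraries were taken, and those with r of at least 0.5 in the single-end runs are named. Each r is a description over libraries that share depth and amplification. For Calm2 the gene named was Mtap1b, which encodes the microtubule-associated protein MAP1B, with r = 0.81 in the paired-end and 0.85 in the single-end runs. For Nrgn it was Zfp238, a zinc finger repressor of cortical and hippocampal neurons, with r = 0.83 and 0.79. For Hpcal4 they were Celf4, an RNA-binding protein, with r = 0.86 and 0.63, and Cfl1, the actin-severing cofilin, with r = 0.85 and 0.64. For Ncdn they were Morf4l2, with r = 0.86 and 0.65, and Cnih2, an auxiliary subunit of AMPA receptors, with r = 0.74 and 0.72.

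For Vsnl1 it was Snap25, the synaptic SNARE protein, with r = 0.80 in the paired-end and 0.50 in the single-end runs, for Hpca Arpc5, an actin-nucleating subunit, with r = 0.72 and 0.51, and for Ncald Fam107a, with r = 0.70 and 0.77. The highest paired-end r of Hpca (Tubb4, 0.78) and Ncald (Gm3168, 0.81) belonged to genes with 0.10 and -0.25 in the single-end runs. For Calm3 no gene met both limits. Among the 28 pairs of members the median r was 0.21 in the paired-end and 0.28 in the single-end runs. The highest was that of Calm3 and Nrgn at 0.84 in the paired-end runs, where the single-end runs gave 0.47.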
